A study of Saccharomyces cerevisiae with 6 samples.

Results

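The CCT complex (also called TRiC) is the cytosolic chaperonin of eukaryotes, and its 8 subunits are encoded in yeast by TCP1 (the subunit CCT1) and CCT2 to CCT8. All 8 genes were found on the arrays by matching their standard names to systematic open reading frame (ORF) names, 8 of the 6377 ORFs measured, and each had a value on every array. The mRNA ratio of dox-treated over untreated cells was measured in 2 independently grown cultures of a haploid strain of R1158 background with the genotype TETp-HSC82 hsp82Δ arg4Δ lys5Δ car2Δ::URA3. In this strain HSP82 is deleted and doxycycline (dox) shuts the promoter of HSC82, the remaining Hsp90 gene, so that the treated cells run low in this chaperone. Treated cells had 5 μg/ml dox for 11 h and untreated cells of the same strain had none, and both samples were hybridized to the same array. The deletions are thus shared by both sides of every ratio, and there was no strain with normal Hsp90 genes in the comparison. In culture 1 the treated cells were grown with light and in culture 2 with heavy arginine and lysine, so culture and isotope cannot be told apart. RNA of each culture was isolated 3 times for 3 technical arrays, 6 arrays in all, so the number of biological replicates is 2. The treated sample carried Alexa Fluor 647 and the untreated sample Alexa Fluor 555 on every array, so that for any 1 gene, dye and dox cannot be told apart.

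CCT is built of a pair of stacked rings in which each subunit holds a fixed position. The rings enclose a folding chamber that opens and closes with ATP, and each subunit combines an ATP-binding domain shared by the family with its own substrate-binding surface. Actin and tubulin are its best known obligate substrates, several WD40 proteins also depend on it, and every subunit is essential in yeast. Prefoldin hands over unfolded actin and tubulin to the chaperonin. CCT genes are usually counted among the chaperones that work with the translation machinery rather than among those induced by heat.

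The deposited values are log2 ratios of treated over untreated cells, in which 0 means equal levels after the authors' normalization and 0.585 a 1.5-fold rise. All levels and fold changes given here are relative to that normalization. The arrays held 6180 to 6353 values each, with medians from −0.032 to 0.021. The direction of the ratio follows the sample titles, and HSC82 had log2 ratios of −6.43, −6.36 and −5.96 in culture 1 and −5.48, −6.00 and −5.70 in culture 2. Background intensities were not analysed here, and the precision of the means is limited by the 2 cultures. Each culture entered the test as the mean of its arrays, and limma compared the mean of the 2 cultures with 0 for all 6290 genes measured in both.

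None of the 8 subunits met the criterion of a change above 1.5-fold with an unadjusted p below 0.05 (limma, n = 2 cultures), against 659 of all 6290 genes (10.5%), of which 361 were higher (5.74%) and 298 lower (4.74%). At that share fewer than 1 of 8 genes would be called, so the count does not set the subunits apart from other genes. The subunits' mean log2 ratios ran from −0.37 for CCT8 to 0.33 for TCP1, with a median of −0.052, against −0.0057 over all genes tested. The median absolute log2 ratio was 0.088 for the 8 subunits and 0.199 over all genes. With Benjamini-Hochberg adjustment none of the subunits passed, while 337 of all genes (5.36%) did. Without the fold threshold 2 of the 8 subunits passed the unadjusted p, TCP1 in the upward and CCT8 in the downward direction, and so did 29.1% of all genes. Leaving out the first array of culture 1 took TCP1 above this p threshold, and leaving out the first array of culture 2 did the same for CCT8.

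**Figure D1:**
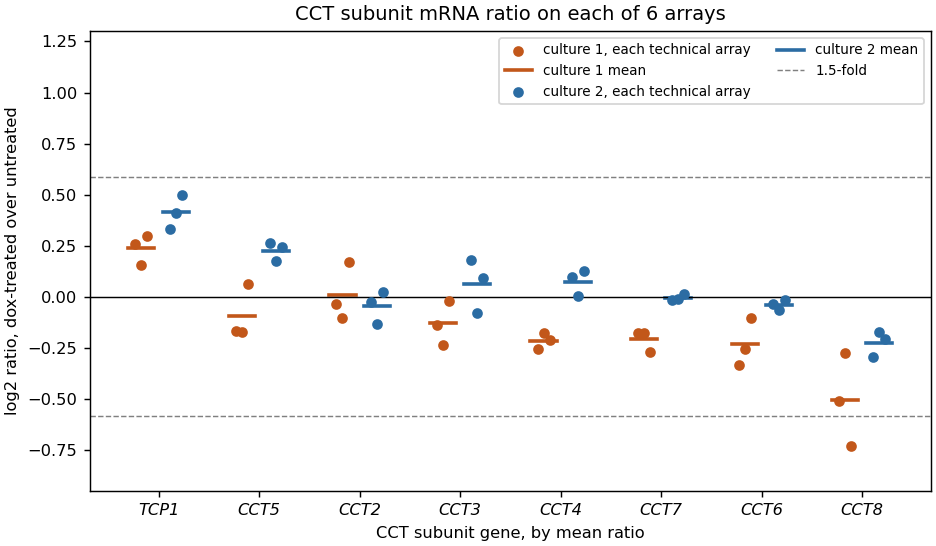
Log2 ratio of dox-treated over untreated cells (vertical axis) for the 8 CCT subunit genes, ordered by mean; points are single technical arrays, short bars culture means, and dashed lines mark a 1.5-fold change. The TCP1 points all lie above 0 and the CCT8 points all below, and 1 point of 48, CCT8 on the third array of culture 1 (−0.73), lies beyond a dashed line.

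TCP1 (YDR212W, chromosome IV), the subunit for which the family was first named, had the highest ratio. Its log2 ratios were 0.26, 0.155 and 0.30 on the arrays of culture 1 and 0.33, 0.41 and 0.50 on those of culture 2. All 6 arrays were thus above 0, and every array of culture 2 was above every array of culture 1. The mean was 0.33 (standard error 0.12, 95% interval 0.018 to 0.63, adjusted p = 0.155 from limma), a level in treated cells 1.253 times that in untreated cells. Of all genes tested, 85.5% had a lower mean.

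CCT8 (YJL008C, chromosome X), the theta subunit, stood at the other end. It had log2 ratios of −0.51, −0.28 and −0.73 in culture 1 and −0.30, −0.17 and −0.21 in culture 2, with 6 of 6 arrays below 0. The spread between technical arrays was larger in culture 1 (SD 0.23) than in culture 2 (SD 0.063), and the 2 cultures overlapped. The mean was −0.37 (standard error 0.13, 95% interval −0.70 to −0.036, adjusted p = 0.144 from limma), and 13.1% of all genes had a lower mean.

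The other subunits with a negative mean in both cultures were CCT6 and CCT7. With CCT8 this made 3 of 8 subunits (37.5%), against 37% of all genes tested. Only TCP1 was above 0 in both cultures (12.5% of the subunits), against 37% of all genes. CCT6 (YDR188W, chromosome IV), the zeta subunit, had −0.33, −0.26 and −0.10 in culture 1 and −0.037, −0.063 and −0.014 in culture 2. All 6 of its values were below 0, but those of culture 2 were close to it, and the mean of −0.13 had a standard error of 0.12 (adjusted p = 0.509 from limma). CCT7 (YJL111W, chromosome X), the eta subunit, had −0.18, −0.18 and −0.27 in culture 1 against −0.017, −0.0096 and 0.015 in culture 2. Its mean of −0.11 thus came almost wholly from culture 1 (adjusted p = 0.607 from limma).

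The remaining subunits did not keep one sign. CCT4 (YDL143W, chromosome IV), the delta subunit, had −0.26, −0.18 and −0.21 in culture 1 and 0.095, 0.0020 and 0.126 in culture 2. CCT5 (YJR064W, chromosome X), the epsilon subunit, had −0.17, −0.18 and 0.064 in culture 1 and 0.26, 0.17 and 0.24 in culture 2. In both genes the arrays of culture 2 lay above those of culture 1 without overlap. CCT3 (YJL014W, chromosome X), the gamma subunit, had −0.14, −0.23 and −0.020 in culture 1 and 0.18, −0.080 and 0.091 in culture 2. CCT2 (YIL142W, chromosome IX), the beta subunit, had −0.036, −0.106 and 0.17 in culture 1 and −0.027, −0.13 and 0.025 in culture 2. The values of CCT2 and CCT3 scattered around 0 in an overlapping range. The means of these 4 genes ran from −0.071 for CCT4 to 0.066 for CCT5, and their adjusted p from 0.756 to 0.934 (limma).

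A ratio that misses the criterion does not show that a gene was unchanged, so the width of the intervals was examined as well. For 6 of the 8 subunits the whole 95% interval lay between a 1.5-fold fall and a 1.5-fold rise (log2 −0.585 to 0.585), as it did for 59.8% of all genes tested. The exceptions were TCP1 and CCT8, whose intervals reached 0.63 and −0.70. The standard errors of the subunits were alike, from 0.116 for CCT2 to 0.135 for CCT5, as limma moderates them over all genes. This count thus mostly restates the means and is no separate measure of the precision of each subunit. The technical arrays of a subunit had a median SD of 0.11 in culture 1 and 0.064 in culture 2, against 0.109 and 0.118 over all genes.

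Since all subunits are read on the same array, their order within an array does not depend on a constant subtracted from that array. The authors' LOWESS normalization depends on intensity, however, and could shift genes by different amounts. As the dyes were never swapped, a dye effect of a gene would also recur on every array. TCP1 was the highest and CCT8 the lowest of the 8 subunits on each of the 6 arrays. The log2 ratio of TCP1 exceeded that of CCT8 by 0.77, 0.43 and 1.03 in culture 1 and by 0.63, 0.58 and 0.70 in culture 2. Of the 28 pairs of subunits, 16 had the same order on all 6 arrays. All 7 pairs with TCP1 and all 7 pairs with CCT8 belonged to these, and the only 3 others were CCT5 above CCT4, CCT6 and CCT7. Between neighbours in the order of means, the steps from TCP1 down to CCT5 (0.26) and from CCT6 down to CCT8 (0.23) had the same sign on all 6 arrays. The steps between them were 0.084 or less, and none of these 5 had the same sign on every array. Probes of different genes were compared here by their ratios only, which says nothing about which subunit mRNA is more abundant, and no test was made of an order that was picked from the same arrays.

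**Figure D2:**
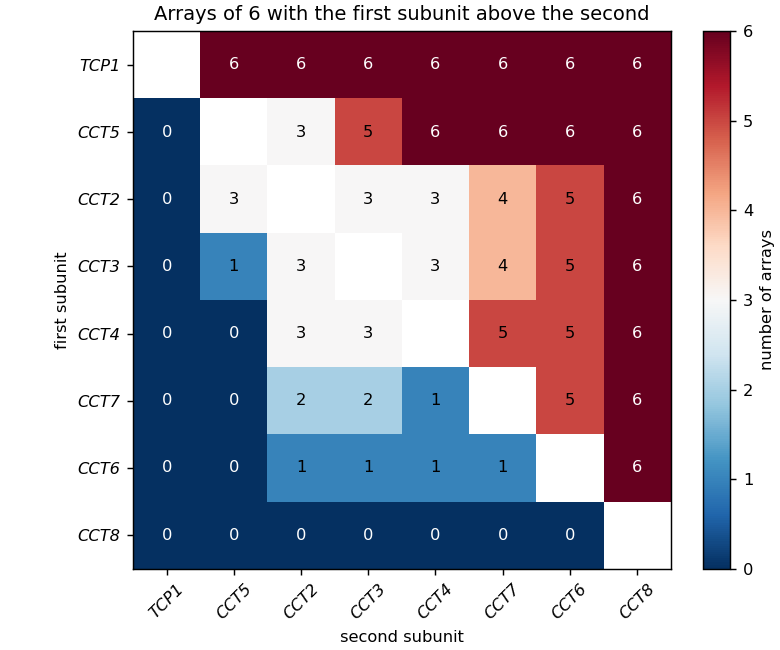
Number of the 6 arrays on which the subunit of the row had a higher log2 ratio (dox-treated over untreated) than the subunit of the column, with subunits ordered by mean ratio. The TCP1 row holds 6 throughout and the CCT8 row 0 throughout, while CCT2, CCT3 and CCT4 exceed each other on 3 arrays each.

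The subunits are known to differ in ATP affinity, and those that bind ATP tightly (TCP1, CCT2, CCT4 and CCT5) occupy one side of the ring opposite those that bind it weakly (CCT3, CCT6, CCT7 and CCT8). The mean log2 ratio was 0.076 over the 4 high-affinity subunits and −0.16 over the 4 low-affinity ones. The high-affinity side was above the low-affinity side on every array, by 0.24, 0.16 and 0.36 in culture 1 and by 0.21, 0.19 and 0.25 in culture 2. Without TCP1 and CCT8 the difference had the same sign on the 6 arrays but was only 0.062 to 0.14. By single genes the sides overlapped, as CCT3 (−0.034) had a higher mean than CCT4 (−0.071). This is a description of 8 genes and was given no test.

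The cultures differed in the level of the group as a whole. On the arrays of culture 2 the mean over the 8 subunits was 0.061, 0.016 and 0.097, and on those of culture 1 it was −0.17, −0.16 and −0.10. The 3 arrays of culture 2 were above the 3 of culture 1, and 7 of the 8 subunits were higher in culture 2, all but CCT2. Over all genes, 56.5% were higher in culture 2. The median of the 8 subunits was 0.030 in culture 2 and −0.17 in culture 1, against 0.019 and −0.024 over all genes tested. The median difference between the cultures was 0.20 for the subunits and 0.039 for all 6241 genes compared.

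With limma over 3 technical arrays against 3, which compares these 2 cultures only, none of the subunits differed by more than 1.5-fold with an adjusted p below 0.05, a rule that 459 genes (7.35%) met. By the adjusted p alone 2 subunits passed, as did 22.3% of all genes. CCT5 had 0.23 in culture 2 and −0.093 in culture 1, a difference of 0.32 (standard error 0.10, adjusted p = 0.0438), and CCT4 had 0.074 in culture 2 and −0.22 in culture 1, a difference of 0.29 (adjusted p = 0.0375). With each array centered on its median, neither of them passed (adjusted p = 0.0687 for CCT5 and 0.0652 for CCT4). Over all alternatives, left-out arrays included, the adjusted p ran from 0.0168 to 0.147 for CCT5 and from 0.0368 to 0.151 for CCT4. The difference of HSC82 itself was 0.52 (−5.73 in culture 2 and −6.25 in culture 1), and its part in that of the subunits was not tested. The HSC82 arrays, from −6.43 to −5.48, lay near the lowest deposited value (−6.6439), which looks like a floor. The size of the HSC82 difference is therefore uncertain.

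**Figure D3:**
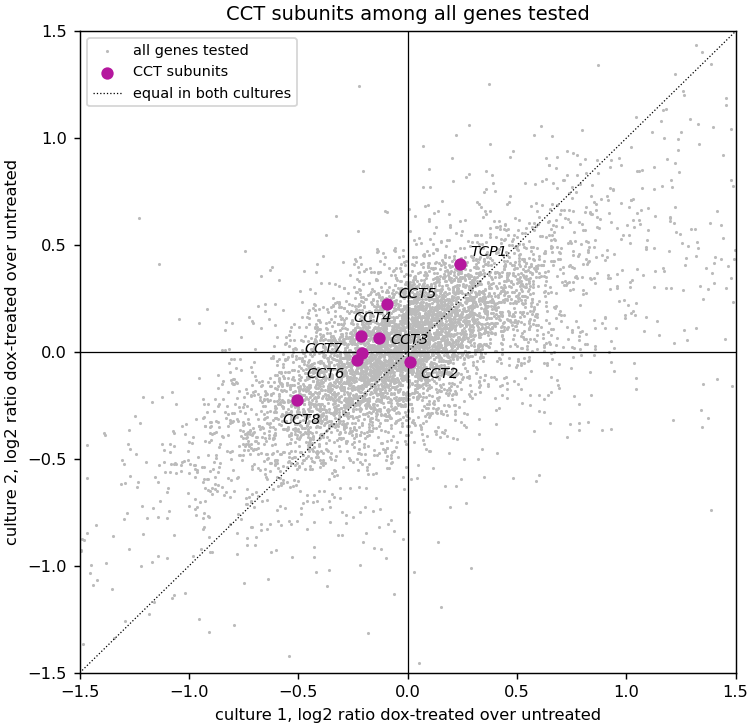
Mean log2 ratio (dox-treated over untreated) of the 3 arrays of culture 1 (horizontal) and of culture 2 (vertical) for the genes tested in grey and the 8 CCT subunits in purple; 137 of 6290 genes have a log2 ratio beyond 1.5 in either direction and are not drawn. All subunits but CCT2 lie above the dotted line of equal ratios, and TCP1 and CCT8 mark the ends of the group.

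The genes around the chaperonin were examined from lists of its co-chaperones, substrates and related folding factors. The counts that meet the criterion in these lists are to be read against the 10.5% of all genes that met it. Of the 6 prefoldin genes, none met it in either direction. Their median log2 ratio was −0.056, against −0.052 for the CCT subunits and −0.0057 over all genes tested. The closeness to CCT was not particular to prefoldin, as the tubulin cofactors described below had −0.051. The highest mean was that of YKE2 (0.025), whose arrays ran from −0.24 to 0.32, and the lowest that of PAC10 (−0.21). PAC10 had −0.24, −0.38 and −0.21 in culture 1 and −0.030, −0.25 and −0.12 in culture 2, with a standard error of the mean of 0.12 (adjusted p = 0.307 from limma). In culture 2, 5 of the 6 were higher than in culture 1, against 56.5% of all genes, and none of these differences passed the adjusted p.

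None of the 4 genes of the cytoskeletal substrates met the criterion. ACT1, the actin gene, had 0.042, 0.017 and 0.072 in culture 1 and −0.50, 0.10 and −0.24 in culture 2. The arrays of culture 2 thus disagreed with each other (SD 0.30), and the mean of −0.083 rests on them. TUB2, the gene of beta-tubulin, was above 0 on all 6 arrays with a mean of 0.16. The genes of alpha-tubulin, TUB1 and TUB3, had means of 0.055 and 0.155. TUB3 was higher in culture 2 (0.32) than in culture 1 (−0.0086), a difference of 0.33 (adjusted p = 0.0266 from limma over the technical arrays).

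Of the 3 genes for WD40 substrates, none met the criterion. CDC20, an activator of the anaphase-promoting complex, was closest to it, with 0.37, 0.46 and 0.37 in culture 1 and 0.50, 0.25 and 0.36 in culture 2. Its mean of 0.38 (standard error 0.12, limma adjusted p = 0.104) equals a 1.31-fold higher level. CDC55, a regulatory subunit of protein phosphatase 2A, had a mean of 0.195, and CDH1, the other activator, one of −0.11.

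The tubulin cofactors take over tubulin after release from CCT and assemble the heterodimer. None of the 6 genes met the criterion. Their means ran from −0.38 for CIN2 (cofactor C, adjusted p = 0.125 from limma), which was below 0 on 6 of 6 arrays, to 0.26 for RBL2 (cofactor A, adjusted p = 0.278). All 6 were higher in culture 2 than in culture 1, against 56.5% of all genes. CIN4 had 0.21 in culture 2 and −0.31 in culture 1, a difference of 0.52 (adjusted p = 0.00280 from limma over the technical arrays), and CIN1 had 0.090 in culture 2 and −0.20 in culture 1 (adjusted p = 0.0490). ALF1, the gene of cofactor B, had 0.013 in culture 2 and −0.70 in culture 1, a difference of 0.71 (adjusted p = 0.00581). It was the only one in these lists beyond 1.5-fold with an adjusted p below 0.05, a rule met by 7.35% of all genes compared.

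The factors that meet the nascent chain at the ribosome, as CCT does for part of its substrates, were the most uneven of the lists. BTT1, the minor beta subunit of the nascent polypeptide-associated complex, was the only one of the 7 genes to meet the criterion. It had −0.88, −0.84 and −0.99 in culture 1 and −0.52, −0.19 and −0.34 in culture 2. The mean of −0.63 had a standard error of 0.17 and equals 0.65 of the untreated level, but did not pass after adjustment (adjusted p = 0.0844 from limma). Its cultures differed by 0.55 (adjusted p = 0.00705 from limma over the technical arrays). Without the first array of culture 2 its mean was −0.58, and it no longer met the criterion. ZUO1, the J protein of the ribosome-associated complex, had the highest mean (0.49, standard error 0.12, adjusted p = 0.0701), with 0.36, 0.39 and 0.75 in culture 1 and 0.66, 0.23 and 0.56 in culture 2. The median of the list was 0.10. In culture 2, 6 of the 7 genes were higher than in culture 1, against 56.5% of all genes. The median difference was 0.21 in this list and 0.20 for the CCT subunits. It was 0.34 for the tubulin cofactors, 0.13 for prefoldin and 0.12 for the WD40 substrates. For the cytoskeletal substrates it was −0.041 and for the mitochondrial chaperonin −0.29. In the mitochondrial chaperonin, a separate family that folds imported proteins, HSP60 had a mean of 0.22 and its co-chaperonin HSP10 one of 0.045. Both were lower in culture 2 than in culture 1, HSP60 with 0.087 in culture 2 and 0.35 in culture 1 (limma over the technical arrays, adjusted p = 0.0490), and HSP10 with −0.11 in culture 2 and 0.20 in culture 1 (adjusted p = 0.0260).

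**Figure D4:**
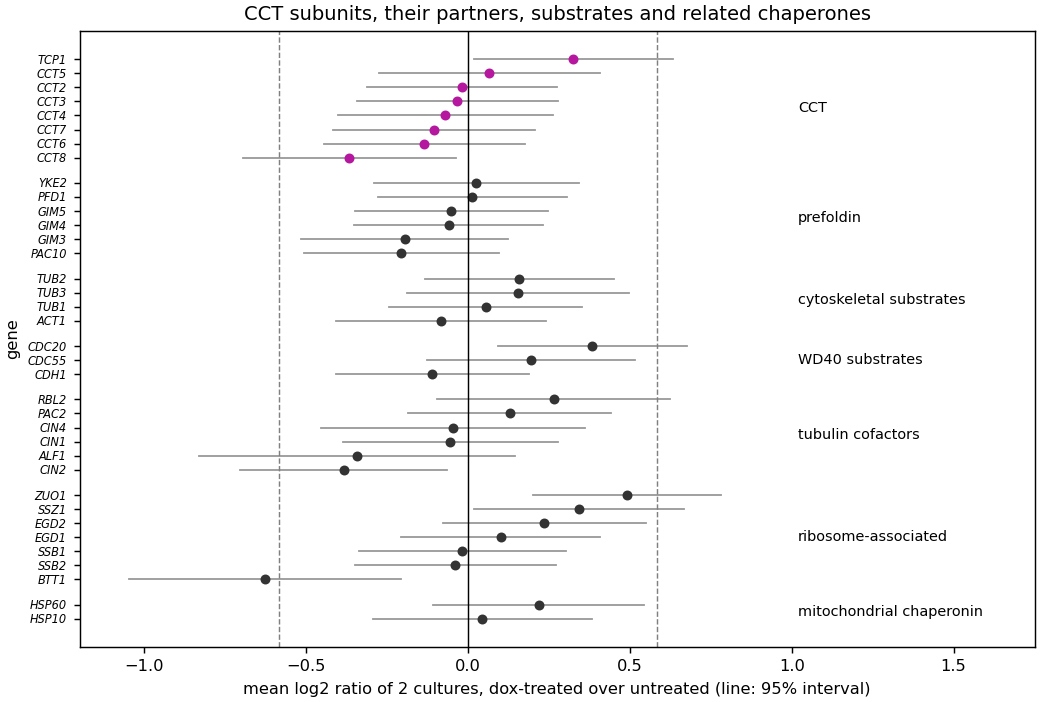
Mean log2 ratio (dox-treated over untreated, 2 cultures) and 95% interval for the CCT subunits in purple and for the genes of 6 related lists in black; dashed lines mark 1.5-fold. Only BTT1 (−0.63) has its mean beyond a dashed line, and TCP1 and CCT8 lie farthest from 0 among the subunits.

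The genes on either side of each subunit gene in the yeast reference annotation were compared as well, 16 genes in all. Their median log2 ratio was −0.056, and 1 of the 16 met the criterion, against 10.5% of all genes. AXL2, an axial bud-site marker next to CCT2, rose by 1.04 on the log2 scale (1.24 in culture 1 and 0.84 in culture 2, standard error 0.14, adjusted p = 0.0343 from limma), while CCT2 itself had a mean of −0.018. SSL2, on the other side of CCT2, had a mean of −0.33. Beside TCP1, GCD6 and UPC2 had means of −0.21 and −0.37, opposite in sign to that of TCP1. Beside CCT8, NOP9 had a mean of −0.19 and YJL007C one of −0.45.

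Among 6145 other genes with a value on every array, those nearest to the mean profile of the 8 subunits over the 6 arrays were GSR1, MYO4, SPP41, PRP19 and RFC5. Their root mean square difference from that profile ran from 0.036 to 0.049 on the log2 scale. The subunits themselves differed from their own mean profile by 0.061 for CCT4 up to 0.37 for TCP1. The mean profile is a shallow one, between −0.17 and 0.097. With the nearest picked from 6145 genes, close ones outside the complex were bound to be found, while the subunits were not picked in this way.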

How the data were processed

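cDNA of dox-treated and untreated cells was hybridized to homemade oligonucleotide arrays. Normalization by the authors was a LOWESS fit for every array (GeneSpring GX), and the deposited value of an ORF is taken here as a log2 ratio of treated over untreated cells; the lowest value, −6.6439, is the log2 of a round ratio and looks like a floor. Scale and any further centering are not given in the sources used here. Symbols came from the R64 reference table for 5797 of 6377 rows, and no sample column was left unused (0).

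Arrays were averaged per culture and tested against 0 with limma (version 3.58.1, R 4.3.3, two-sided) over 6290 genes, with Benjamini-Hochberg adjustment over all of them. The study's methods state the 1.5-fold and 0.05 criterion without naming the test. These p-values take the culture as the replicate, so the spread between cultures is known from only 2 of them. In the fit, limma draws the spread of each gene toward that of all genes, so standard errors are partly set by other genes. For CCT2 and ZUO1, whose 2 culture means nearly agreed, the standard error was still 0.12. Cultures were compared over technical arrays, so the p-values of that comparison cover no variation beyond these 2 cultures. All 8 subunits, the genes meeting the criterion and the extremes of each list were named, with all genes of lists of up to 4, except 1 list that is not reported here. Members and lists were chosen with earlier results of these data known. The fits were tested on simulated data. Alternatives covered thresholds, replication unit, normalization, missing values and left-out arrays or cultures. Sequences and promoter motifs were not analysed here.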

Additional observations from a re-analysis of the deposited data

Results flagged for a closer look

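The array values of 60 named genes were compared for a single array far from the other 5. Chance flags about 1 in 20 genes if all arrays are alike, which technical arrays of 2 cultures need not be. Only 1 gene of the 60 stood apart, which is below that share. GIM5, a prefoldin subunit, had a log2 ratio of 0.117 on the second array of culture 2 against −0.047 on the next highest array.

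Of 60 named genes, 2 differed between the cultures by more than 1.5-fold with an adjusted p below 0.05 (limma over technical arrays). The same rule was met by 459 of all 6241 genes compared (7.35%), so this count does not set the named genes apart. ALF1 was higher in culture 2 by 0.711 (0.013 in culture 2 and −0.70 in culture 1, adjusted p = 0.00581). YJL007C, which lies next to CCT8, had a difference of −0.776 (−0.84 in culture 2 and −0.062 in culture 1, adjusted p = 0.00715), in the direction opposite to that of CCT8 (−0.23 in culture 2 and −0.51 in culture 1).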

How the results depend on the processing

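The count of CCT subunits called stayed at 0 with the adjusted p, at 2-fold, under each unit of replication and normalization, and with any array or culture left out, and was 2 without the fold threshold. The median of the subunits ran from −0.17 to 0.030 with an array or culture left out. The number of all genes called (659) was 337 with the adjusted p, 1833 without the fold threshold, 181 at 2-fold, and 525 to 1076 with an array or culture left out, where a single culture was judged by its fold alone. Between the cultures 0 subunits and 459 genes differed, against 2 and 1394 by the adjusted p without the fold. Of 660 values of single genes under alternatives that kept both cultures, 14 changed sign and 1 its side of the criterion (BTT1, −0.58). The 14 belong to CCT2, CCT3, YKE2, GIM4, PFD1, SSB1, SSB2 and RPA12, whose means lay between −0.060 and 0.030. With 1 culture alone, judged by value with no test, 23 of 60 genes had the opposite sign, among them CCT2, CCT3, CCT4 (0.074 without culture 1) and CCT5 (−0.093 without culture 2), and their means reached −0.34 (ALF1) and 0.155 (TUB3). By the fold alone BTT1 (−0.35 without culture 1), ALF1 (−0.70 without culture 2) and YJL007C (−0.84 without culture 1) then changed side. With an array or culture left out CCT2 ran from −0.058 to 0.011, CCT3 from −0.13 to 0.063, YKE2 from −0.088 to 0.139, GIM4 from −0.121 to 0.0075, PFD1 from −0.019 to 0.059, SSB1 from −0.137 to 0.102, SSB2 from −0.139 to 0.061 and RPA12 from −0.13 to 0.19. PFD1 was −2.61e-05 after scale and −0.00098 after quantile normalization. The 2 cultures limit the precision, and signal over background was not analysed here.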
